A study of Mus musculus with 24 samples.

Results

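The 8 genes described here encode chains of the fibrillar collagens: Col1a1 and Col1a2 (type I), Col3a1 (type III), Col5a1, Col5a2 and Col5a3 (type V), Col11a1 (type XI) and Col27a1 (type XXVII). They were taken by symbol from a table of RNA-Seq counts that covers 56205 genes, and all 8 were found. The counts came from whole livers of C57BL/6J mice, male and female, young adults when feeding began. For 20 weeks the mice received either a high-fat diet that the labels call FFD, described in the study's methods as rich in palm oil, fructose and cholesterol, or its control diet, and each diet gave 12 libraries of poly(A)-selected RNA. The mice carried no transgene or deletion that the labels name, and the comparison of the diets asked how this model of steatohepatitis changes the liver transcriptome. Of the 8 chains, 5 rose on the high-fat diet (Col1a1, Col1a2, Col3a1, Col5a1 and Col5a2), by between 2.68-fold and 8.72-fold. Col5a3 and Col27a1 did not pass the test over all libraries, and Col11a1 had no count in any library.

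Fibrillar collagens are made as procollagens in which 3 chains wind into a triple helix. Glycine recurs at a fixed spacing along each chain of the helix, and the ends of most of these procollagens are clipped off before the molecules line up into fibrils. Type I collagen is usually a heterotrimer of a pair of α1 chains, from Col1a1, and an α2 chain, from Col1a2. Type III is a homotrimer of the Col3a1 chain. Type V is a minor partner that starts and narrows fibrils, most often with α1 chains from Col5a1 and an α2 chain from Col5a2, and in some tissues with the α3 chain from Col5a3. Types XI and XXVII are best known from cartilage. In the liver, stellate cells and portal fibroblasts are the main makers of types I and III, and these collagens form the scar of hepatic fibrosis.

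Libraries held 14468418 to 22112552 counts. Levels are given as CPM, counts scaled to a fixed library total, adjusted with edgeR's TMM method, and changes as log2 fold changes, high-fat minus control, with their SE (standard error) and the p of edgeR's quasi-likelihood test, adjusted over the 17913 genes detected in 12 or more libraries. A call needed an adjusted p no higher than 0.01 and an absolute log2 fold change above 0.5, and 7 of the 8 chains were tested. Alb, which encodes albumin of hepatocytes, had 482163 to 1952671 counts per library. Replicates 1 to 6 of both diets had 2664 to 6285 counts of Xist, the RNA of the inactive X chromosome, and 0 of the Y-linked Ddx3y. Replicates 7 to 12 had 0 to 3 counts of Xist and 448 to 1016 of Ddx3y. The description of the series gives 6 mice per diet and sex, but the labels give no sex for a library. The 2 sets, called Xist-high and Xist-low below, are therefore read from the data and are not labelled conditions. By Xist and Ddx3y the Xist-high libraries read as female and the Xist-low libraries as male, with 6 of each per diet. Whatever else differs between the numbers 1 to 6 and 7 to 12 cannot be told apart from this split. In a whole tissue, fewer cells of a type and less RNA per cell cannot be told apart.

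The chains share stretches of their coding sequence, which bears on how well reads can be assigned to each of them. Over the 28 pairs, the longest identical run between the GENCODE M21 transcripts was 15 to 32 bases, with a median of 18. The RNA-Seq reads described in the study's methods are longer than any of these runs. The longest run of the type V pair and those that join Col1a1 with its partners are printed because ratios of these chains follow below. All 3 lie in the coding sequence of both genes, and capitals mark glycine codons.
Col5a1 and Col5a3: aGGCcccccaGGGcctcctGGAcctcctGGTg
Col1a1 and Col1a2: ccctGGCcctgctGGTcctgctGGT
Col1a1 and Col3a1: GGTccccctGGCcctcctgg

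RefSeq promoters (GRCm38.p6, 250 bases before to 50 after the start, printed 5′ to 3′ on the gene's strand) were found for 6 of the 8 genes. The 4 printed belong to the pair of chains that ran closest together, Col1a2 and Col3a1, and to the pair whose diet change took opposite signs in the sets, Col5a3 and Col27a1. Capitals mark the CCAAT box, letters CCAAT, and the GC box, letters GGGCGG, on either strand. These motifs stood in 37.4% and 35.7% of the 32851 promoters of the table. The Col1a2 promoter, chr6:4505368-4505667 on the plus strand, held 2 CCAAT and 2 GC boxes. The Col3a1 promoter, chr1:45311288-45311587 on the plus strand, held neither and had 37.7% G and C bases. The Col5a3 promoter, chr9:20815018-20815317 on the minus strand, held 1 CCAAT and 3 GC boxes, and the Col27a1 promoter, chr4:63215162-63215461 on the plus strand, held 2 GC boxes. The letters TTCNNNGAA of a STAT5 site, in 8.3% of all promoters, were in none of these 4 windows.
Col1a2: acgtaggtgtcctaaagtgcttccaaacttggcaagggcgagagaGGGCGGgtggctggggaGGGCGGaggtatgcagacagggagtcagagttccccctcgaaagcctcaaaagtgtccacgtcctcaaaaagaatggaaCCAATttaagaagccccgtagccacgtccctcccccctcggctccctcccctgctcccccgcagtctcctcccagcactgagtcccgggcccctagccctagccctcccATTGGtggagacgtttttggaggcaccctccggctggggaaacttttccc
Col3a1: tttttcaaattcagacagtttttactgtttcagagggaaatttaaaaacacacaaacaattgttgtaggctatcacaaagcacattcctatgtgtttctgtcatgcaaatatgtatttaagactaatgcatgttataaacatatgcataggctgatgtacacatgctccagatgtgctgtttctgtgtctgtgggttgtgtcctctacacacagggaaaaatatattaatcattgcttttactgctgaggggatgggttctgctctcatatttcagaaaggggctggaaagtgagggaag
Col5a3: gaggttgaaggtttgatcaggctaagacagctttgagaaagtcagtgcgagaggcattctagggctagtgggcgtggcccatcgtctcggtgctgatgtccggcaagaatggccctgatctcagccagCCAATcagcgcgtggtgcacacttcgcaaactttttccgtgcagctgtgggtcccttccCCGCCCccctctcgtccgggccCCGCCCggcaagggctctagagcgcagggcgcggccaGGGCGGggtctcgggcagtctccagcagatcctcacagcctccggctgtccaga
Col27a1: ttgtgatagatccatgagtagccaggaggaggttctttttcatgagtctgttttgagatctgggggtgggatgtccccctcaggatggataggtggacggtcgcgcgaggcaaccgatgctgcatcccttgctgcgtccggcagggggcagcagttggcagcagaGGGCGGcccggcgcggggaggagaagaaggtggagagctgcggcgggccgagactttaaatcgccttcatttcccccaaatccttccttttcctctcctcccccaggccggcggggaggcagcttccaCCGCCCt

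Both type I chains were several times more abundant in high-fat livers. Col1a1 (ENSMUSG00000001506; GRCm38 chr11:94936224-94953042, plus strand) had 34.4 CPM in the lowest high-fat library, a median of 99.4 and 214 in the highest. In the control libraries it ran from 4.79 to 55.1 with a median of 8.42. Control replicate 11 alone reached 55.1, above 4 of the high-fat libraries, while 24.2 in replicate 6 was the next highest control value. The log2 fold change of Col1a1 was 3.12 (SE 0.42, adjusted p = 4.09e-06), that is 8.72-fold, and it was 3.59 without control replicate 11. Col1a2 (ENSMUSG00000029661; chr6:4504814-4541544, plus strand) had 36.6 to 144 CPM in high-fat livers, with a median of 80.1, and 6.72 to 53.4 in control livers, with a median of 11.4. Its log2 fold change was 2.41 (SE 0.31, adjusted p = 2.81e-06), or 5.32-fold. The spread among high-fat libraries was tied to the Xist sets: Col1a1 had 34.4 to 89.4 CPM in the Xist-high high-fat libraries and 109 to 214 in the Xist-low ones. Within each set, every high-fat library lay above every control library for both chains, which held for 3.48% of the genes tested among the Xist-high libraries and for 12.6% among the Xist-low libraries. The opposite separation held for 2.37% and 9.59%. Among all genes tested 13.2% were called higher and 4.99% lower, the background for the 5 chains called higher and 0 called lower. With library totals in place of TMM the calls over all genes were 3827 higher and 226 lower rather than 2372 and 894, and the 5 chains were called higher and 0 lower in that fit too. None of the chains was lower at an unadjusted p under 0.05, and 0 were called lower by DESeq2 or limma-voom as well.

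Col3a1 (ENSMUSG00000026043; chr1:45311538-45349706, plus strand), the type III chain, was 1 of the 2 chains with the highest levels per length in high-fat livers. It had 79.9 to 288 CPM there, with a median of 159, and 12.4 to 90.1 in the control libraries, with a median of 20.7. Of the 12 high-fat libraries, 11 lay above every control library, and only control replicate 11 reached into their range. The log2 fold change was 2.60 (SE 0.30, adjusted p = 9.64e-07), or 6.08-fold. Col3a1 and Col5a2 are neighbours on chromosome 1 that point toward each other, with 24.6 kb between them.

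Of the type V chains, Col5a1 and Col5a2 rose and did not overlap between the diets. Col5a1 (ENSMUSG00000026837; chr2:27886425-28039514, plus strand) had 19.8 to 37.5 CPM in high-fat livers, with a median of 28.4, and 5.57 to 17.8 in control livers, with a median of 10.5. Its log2 fold change of 1.42 (SE 0.16, adjusted p = 7.03e-07) was the smallest of the 5 that were called. Col5a2 (ENSMUSG00000026042; chr1:45374321-45503282, minus strand) had 7.05 to 29.2 CPM against 1.93 to 6.57, with medians of 12.1 and 2.76. Its log2 fold change was 2.13 (SE 0.25, adjusted p = 9.9e-07). Complete separation with every high-fat library on top was found in 1.48% of all genes tested, and with every high-fat library at the bottom in 0.402%. The highest Col5a2 value, 29.2 CPM, came from high-fat replicate 9, followed by 20.7 in replicate 10. Replicate 9 also had the most Col3a1, and its summed cholangiocyte markers (Krt7, Krt19, Epcam and Sox9) were at 151 CPM, against 5.28 to 35.0 in the other high-fat libraries. The part of this in the collagen values was not tested.

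**Figure D1:**
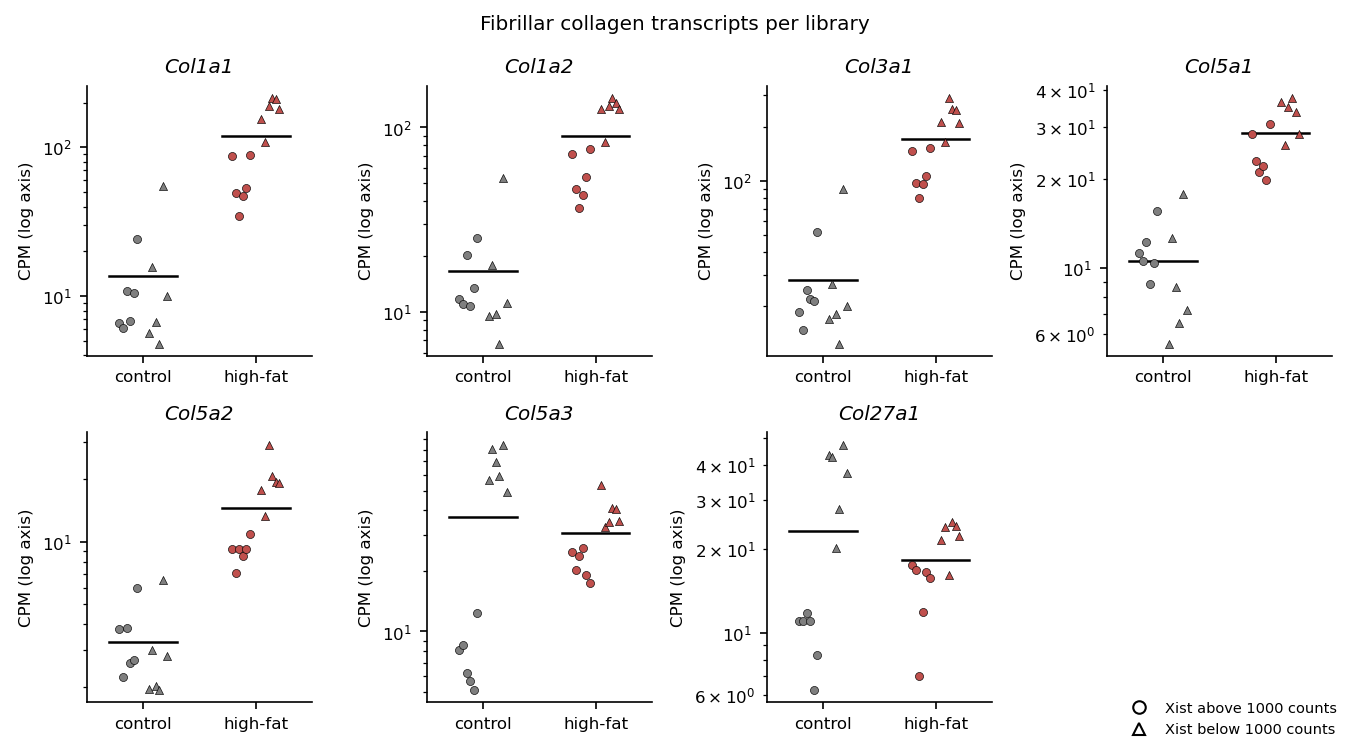
Level of each fibrillar collagen transcript in the 24 libraries, in CPM on a log axis; circles are Xist-high and triangles Xist-low libraries, and black lines are means of 12 libraries. Col5a1 and Col5a2 do not overlap between the diets, whereas Col5a3 and Col27a1 split by set within the control diet.

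The α3 chain of type V behaved differently. Col5a3 (ENSMUSG00000004098; chr9:20770050-20815067, minus strand) had 17.4 to 53.5 CPM in high-fat livers, with a median of 29.6, and 5.11 to 84.7 in control livers, with a median of 30.9. Its log2 fold change over all libraries was -0.27 (SE 0.43, adjusted p = 0.655). This value hides changes of opposite sign. In the Xist-high libraries Col5a3 had 5.11 to 12.4 CPM in control livers and 17.4 to 25.9 in high-fat livers, with no overlap. In the Xist-low libraries it had 49.5 to 84.7 CPM in control livers and 33.2 to 53.5 in high-fat livers, with 5 of 6 high-fat libraries below every control library. Col5a3 thus rose by 1.51 on the log2 scale among the Xist-high libraries (SE 0.19, adjusted p = 0.000261) and fell by 0.72 among the Xist-low libraries (SE 0.15, adjusted p = 0.00176). Within the sets, 2.91% and 0.896% of genes were called higher and lower among the Xist-high libraries, and 14.3% and 7.89% among the Xist-low libraries. The fall of Col5a3 depended on the scaling: with library totals in place of TMM, which put the median log2 fold change of the Xist-low libraries at 0.42 rather than -0.03, its log2 fold change was -0.30 and did not pass (adjusted p = 0.195).

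Col27a1 (ENSMUSG00000045672; chr4:63214004-63334991, plus strand) showed a similar split. Over all libraries it had 6.98 to 25.0 CPM in high-fat livers, with a median of 17.1, and 6.22 to 47.3 in control livers, with a median of 16.0, and its log2 fold change was -0.34 (SE 0.30, adjusted p = 0.381). Among the Xist-low libraries Col27a1 ran from 20.1 to 47.3 CPM in control livers and from 16.1 to 25.0 in high-fat livers, and fell by 0.70 on the log2 scale (SE 0.19, adjusted p = 0.00832). With library totals this difference was -0.28 (adjusted p = 0.29), and with TMM it missed the threshold in 10 of the 12 fits that left out 1 library, with adjusted p from 0.0128 to 0.0218. Among the Xist-high libraries it ran from 6.22 to 11.8 and from 6.98 to 17.5, a log2 fold change of 0.53 that did not pass (SE 0.20, adjusted p = 0.093). Col11a1 (ENSMUSG00000027966; chr3:114030540-114220718, plus strand) had 0 counts in all 24 libraries. The limit that a count of 0 allows, 3 counts, equals 0.118 to 0.305 CPM in these libraries and covers counting error only.

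The difference of the diet change between the sets was tested as an interaction with a threshold of 0.05 on the adjusted p, which 10.2% of all genes passed. It passed for 3 chains. The change of Col5a2 was larger by 1.34 on the log2 scale in the Xist-low libraries (SE 0.37, adjusted p = 0.0196), 2.71 against 1.36. The change of Col5a3 differed by -2.25 (SE 0.25, adjusted p = 5.57e-06) and that of Col27a1 by -1.24 (SE 0.29, adjusted p = 0.00719). The differences of the other chains did not pass with all libraries and TMM: 0.95 for Col1a1, 0.94 for Col1a2, 0.74 for Col3a1 and 0.67 for Col5a1. With library totals in place of TMM, Col5a1 passed as well, at 0.99 (adjusted p = 0.0415). These 4 results also turned on control replicate 11, an Xist-low library with the highest control value of all 7 chains tested. Without it the test passed for all 7 chains, with differences of 1.88 for Col1a1 (adjusted p = 0.00773), 1.66 for Col1a2 (adjusted p = 0.00168), 1.44 for Col3a1 (adjusted p = 0.00625) and 0.94 for Col5a1 (adjusted p = 0.0104). Leaving out control replicate 6, an Xist-high library, moved the difference the other way, to 0.54 for Col1a1 (adjusted p = 0.659) and 0.41 for Col3a1 (adjusted p = 0.671). Without high-fat replicate 9 the difference of Col5a2 was 1.17 (adjusted p = 0.0413).

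**Figure D2:**
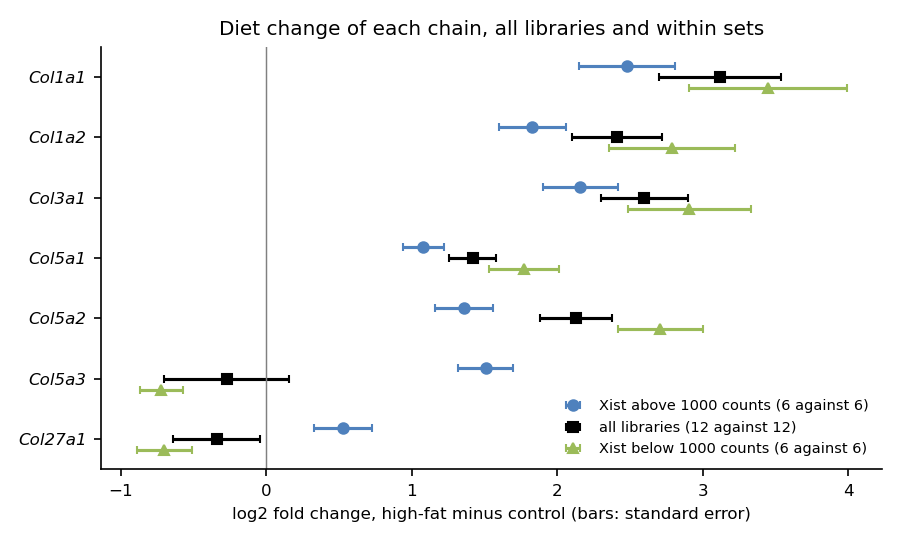
Log2 fold change, high-fat minus control, of each chain over all libraries and within the Xist-high and Xist-low sets. Bars are SEs derived from the edgeR tests. The estimates of Col1a1, Col1a2, Col3a1, Col5a1 and Col5a2 lie right of 0 in every fit, and those of Col5a3 and Col27a1 lie on both sides.

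Ratios of chains within a library do not depend on how the libraries are scaled. For each ratio of counts, the mean log2 ratio was compared between the diets with a two-sided permutation test of 100000 resamples, adjusted over the 9 ratios, with the same threshold of 0.05. The ratios share chains and are not independent of each other. The 2 chains of type I did not rise in step. The ratio of Col1a1 to Col1a2 counts was 0.939 to 1.58 in high-fat livers, with a median of 1.23, and 0.528 to 1.03 in control livers, with a median of 0.699. Of the 12 high-fat libraries, 10 lay above every control library. The mean log2 ratio rose by 0.78 (SE 0.12, adjusted p = 9e-05), and the unadjusted p of 1e-05 is the smallest these resamples give. Divided by transcript length, the ratio had a geometric mean of 1.11 in high-fat livers and 0.647 in control livers. Its level depended on the length used, 2.34 and 1.36 with the length of all exons of a gene, which leaves the difference between the diets as it is. It rose within both sets, by 0.72 among the Xist-high libraries (adjusted p = 0.013, exact permutation test) and by 0.84 among the Xist-low libraries (adjusted p = 0.00325, exact permutation test). The spread of this ratio was small beside that of its chains: its SD within the diets was 0.29 on the log2 scale, against 0.98 for the level of Col1a1 and 0.76 for that of Col1a2.

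Type I as a whole kept nearer to type III. The ratio of the summed Col1a1 and Col1a2 counts to Col3a1 counts was 0.889 to 1.46 in high-fat livers and 0.801 to 1.27 in control livers, with medians of 1.10 and 1.02. The difference of 0.14 on the log2 scale (SE 0.09, adjusted p = 0.141) did not pass. Taken singly, the chains of type I moved apart relative to Col3a1. Col1a1 over Col3a1 rose by 0.55 on the log2 scale (SE 0.13, adjusted p = 0.00104), from a geometric mean of 0.43 to 0.63, and Col1a2 over Col3a1 fell by 0.23 (SE 0.08, adjusted p = 0.00959), from 0.599 to 0.51. The fall of Col1a2 over Col3a1 was 0.38 among the Xist-high libraries (adjusted p = 0.039, exact permutation test), while among the Xist-low libraries the difference was -0.08 (adjusted p = 0.353, exact permutation test). The summed type I ratio took different signs there, -0.06 among the Xist-high libraries (adjusted p = 0.608, exact permutation test) and 0.35 among the Xist-low libraries (adjusted p = 0.0223, exact permutation test). The test of the difference between the sets gave an adjusted p of 0.0913 for the summed ratio and 0.115 for Col1a2 over Col3a1.

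Within type V, Col5a2 gained on Col5a1. The ratio of Col5a1 to Col5a2 counts was 1.2 to 3.26 in high-fat livers, with a median of 2.1, and 2.54 to 4.71 in control livers, with a median of 3.24. It lay below every control library in 8 of 12 high-fat libraries, and the mean log2 ratio fell by 0.64 (SE 0.15, adjusted p = 0.000517). The fall was 0.94 among the Xist-low libraries (adjusted p = 0.00325, exact permutation test), whereas the Xist-high difference of -0.34 did not pass (adjusted p = 0.0696, exact permutation test). The test of the difference between the sets gave an adjusted p of 0.0985. Type V also lost ground to the major collagens. Col5a1 and Col5a2 together, relative to Col1a1 and Col1a2 together, had a count ratio of 0.153 to 0.427 in high-fat livers and 0.225 to 0.825 in control livers, and fell by 1.22 on the log2 scale (SE 0.20, adjusted p = 0.00018). The lowest control value, 0.225, was again replicate 11, and without it the fall was 1.34. Col5a2 over Col3a1 fell by 0.62 (SE 0.13, adjusted p = 0.00042).

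The ratios with Col5a3 followed the sets. Col5a3 over Col5a2 counts had a range of 1.61 to 3.79 in the Xist-high control libraries and of 12.8 to 34.0 in the Xist-low control libraries. On the high-fat diet the ranges were 1.59 to 3.02 and 1.2 to 3.03. The diets overlapped among the Xist-high libraries, with a difference of 0.14 on the log2 scale (adjusted p = 0.608, exact permutation test). Among the Xist-low libraries they were apart by -3.54 (adjusted p = 0.00325, exact permutation test), an 11.6-fold higher ratio in control livers. The difference between the sets was -3.68 (adjusted p = 0.0036, permutation test), and for Col5a3 over Col5a1 it was -3.07 (adjusted p = 0.0107, permutation test). Over all libraries, Col5a3 over Col5a2 fell by 1.70 (SE 0.55, adjusted p = 0.00959), and the difference of -1.06 of Col5a3 over Col5a1 did not pass (SE 0.55, adjusted p = 0.0794). Of the 9 ratios, these were the 2 whose difference between the sets passed the permutation test. That test exchanged the set labels within each diet, so differences between the sets that the diets share widen its null spread. A ratio that did not pass may still differ between the sets.

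**Figure D3:**
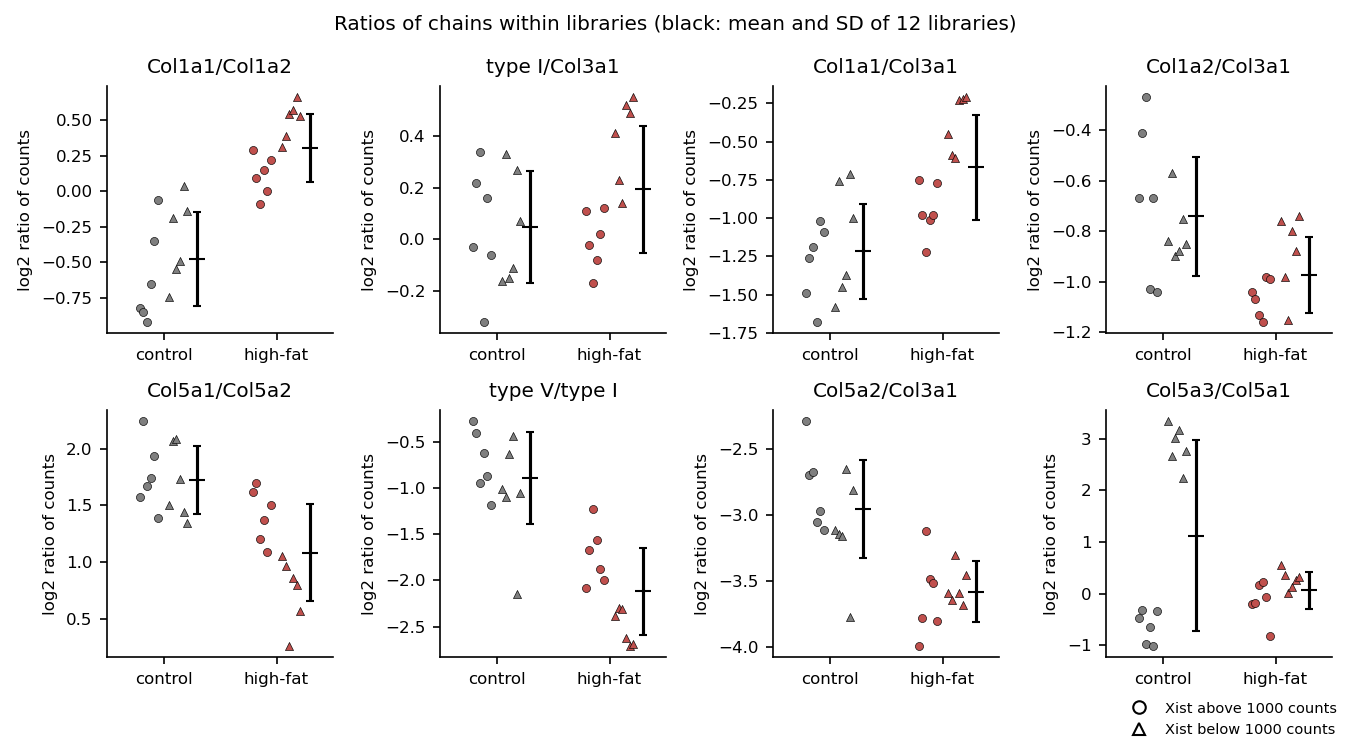
Log2 ratios of counts in each library for 8 of the 9 ratios, where type I is Col1a1 plus Col1a2 and type V is Col5a1 plus Col5a2; black bars are the mean and SD of 12 libraries per diet. In the panel for Col1a1 over Col1a2, 10 high-fat libraries lie above every control library, and in the last panel the control libraries fall into their Xist sets.

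Counts divided by length allow the chains to be compared with each other, and the order depended on the length used. The first values are per kb of the longest coding transcript. On the high-fat diet the mean levels in CPM per kb were 30.7 for Col3a1, 20.0 for Col1a1, 16.7 for Col1a2, 5.04 for Col5a3, 3.39 for Col5a1, 2.39 for Col27a1 and 2.18 for Col5a2. Col3a1 was above Col1a1 in all 12 of these libraries, whereas Col1a1 was above Col1a2 in 8. With the length of all exons, Col1a1 had 18.1 CPM per kb, Col3a1 17.4 and Col1a2 7.18. By that length Col1a1 was above Col1a2 in all 12 high-fat libraries, and Col3a1 was above Col1a1 in 8, of which 2 were Xist-low. On the control diet the order began with Col5a3 at 6.07, followed by Col3a1 at 5.05, Col1a2 at 3.13, Col27a1 at 3.05, Col1a1 at 2.29, Col5a1 at 1.26 and Col5a2 at 0.496. With the length of all exons the control order was Col5a3 at 5.46, Col3a1 at 2.86, Col1a1 at 2.07, Col27a1 at 1.78, Col1a2 at 1.35, Col5a1 at 1.25 and Col5a2 at 0.343, so that Col1a1 and Col1a2 changed places. Per kb of the coding transcript, the lead of Col5a3 came from the Xist-low control libraries, with 10.9 CPM per kb against 1.25 in the Xist-high ones, and Col5a3 exceeded Col3a1 in 5 of the 12 control libraries. The ranges over libraries of all neighbours in either order by coding transcript overlapped, save for Col11a1 at the end. As a share of the summed counts per kb of the family, type I made up 43.8% ± 5.09 (SD, n = 12) in high-fat livers and 25.6% ± 10.3 (SD, n = 12) in control livers. Type III made up 38.8% ± 2.3 (SD, n = 12) and 24.6% ± 9.49 (SD, n = 12). The share of all type V chains was 14.2% ± 3.35 (SD, n = 12) in high-fat livers and 35.5% ± 14.6 (SD, n = 12) in control livers. Col5a3 alone was 41.6% ± 10.7 (SD, n = 6) of the family in the Xist-low control libraries, 9.43% ± 2.69 (SD, n = 6) in the Xist-high control libraries and 6.77% ± 2.05 (SD, n = 12) in high-fat livers. The shifts were smaller among the Xist-high libraries. From control to high-fat livers, mean shares there went from 33.5% to 39.8% for type I, 32.4% to 40.3% for type III and 23.7% to 16.2% for type V. Among the Xist-low libraries they went from 17.8% to 47.8%, 16.8% to 37.2% and 47.2% to 12.3%. These shares were not tested. The summed level of the family was 212 to 733 CPM in high-fat livers and 64.1 to 355 in control livers.

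**Figure D4:**
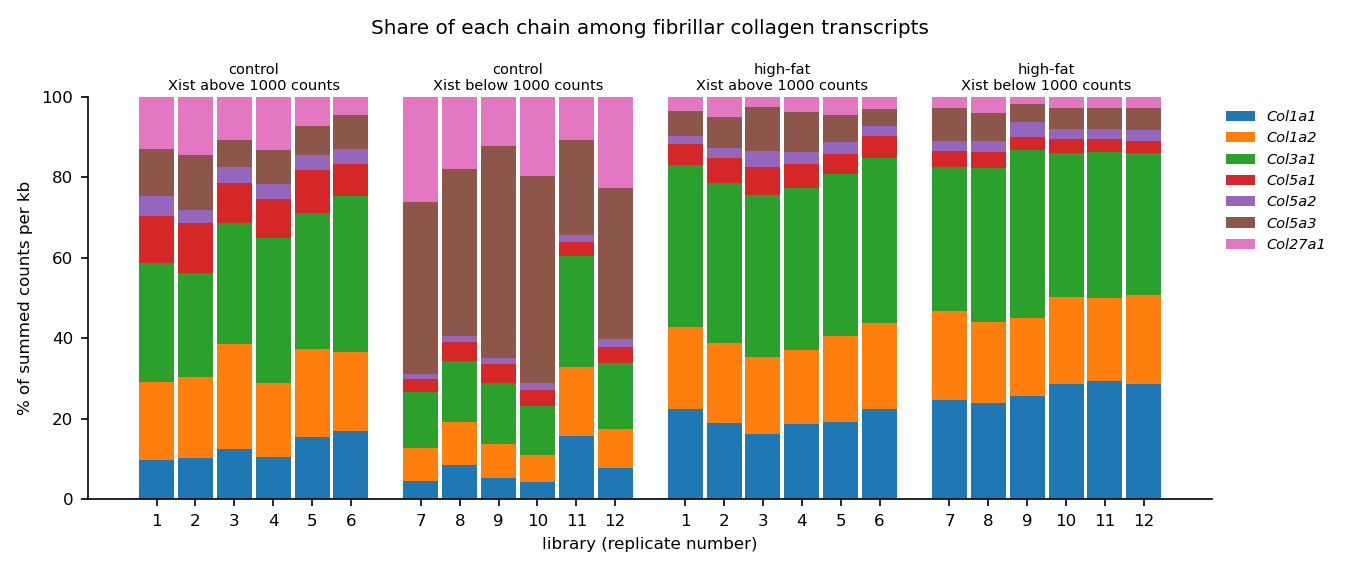
Share of each chain in the summed counts per kb of the fibrillar collagens, for each library in percent, grouped by diet and Xist set. Col5a3 and Col27a1 fill most of the Xist-low control bars other than replicate 11, and the high-fat bars of both sets are mostly Col1a1, Col1a2 and Col3a1.

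The genes whose pattern was most like that of a chain were found from the SD, over the 24 libraries, of the log2 ratio of their levels, among 11139 genes with a mean of at least 50 counts. A small SD means a near constant ratio. The gene nearest to Col1a2 was Col3a1 at 0.23, followed by Col5a2 at 0.39, Olfml3 at 0.42, and Myof and Col6a2 at 0.43, where the median over all ranked genes was 1.55. Nearest to Col1a1 were Col3a1 at 0.43, Col1a2 at 0.49, Cx3cr1 at 0.53, Cd63 at 0.54 and Ccdc120 at 0.55. Nearest to Col3a1 were Col1a2 at 0.23, Cd63 and Atf3 at 0.41, and Col1a1 and Uap1l1 at 0.43. For Col5a3 and Col27a1 the ranking was added after the values were seen. The 5 genes nearest to Col5a3 were Nox4 at 0.44, Olig1 at 0.50, C8a and Arsa at 0.53, and Alas2 at 0.55, and none was a collagen. Nox4 had a log2 fold change of 1.67 within the Xist-high libraries and -0.75 within the Xist-low libraries. Nearest to Col27a1 were Rassf3 at 0.33, then Aox3, Kcp and Ces3a at 0.44 and Olfm3 at 0.46. All these points share libraries and depth, and the values are descriptions.

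The genes that make and finish fibrils were taken by role. Among the 3 other fibrillar chains, Col11a2 and Col24a1 were tested and neither passed, with log2 fold changes of -0.18 and -0.49, and Col2a1 had at most 2 counts. In folding and modification, 5 of 14 genes rose, or 8 with library totals in place of TMM, which added P4ha2, Plod1 and Colgalt1. The 5 with TMM included Serpinh1, the collagen chaperone HSP47, by 1.74 (adjusted p = 9.3e-07). Fkbp10, which assists folding, rose by 1.80, and Crtap, which assists prolyl hydroxylation, by 1.04. The others were Plod2, a lysyl hydroxylase of the telopeptides, by 1.72, and P4ha1, a prolyl 4-hydroxylase subunit, by 0.81. P4hb, the other subunit of that enzyme, had means of 1480 CPM in high-fat livers and 1570 in control livers (log2 fold change -0.08, adjusted p = 0.532). P4ha3 had the largest estimate of this list, 2.24, but with at most 21 counts in a library it did not pass (adjusted p = 0.0254). The lowest estimate was that of Colgalt2, -1.04 with at most 34 counts, which did not pass either (adjusted p = 0.0382). Mia3 was at -0.33 (adjusted p = 0.00327) and missed the fold threshold. The median log2 fold change of the list was 0.34, against -0.03 over all genes tested, and 0.62 against 0.26 with library totals.

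The proteases that remove propeptides moved in both directions. Adamts2, which cleaves the amino end, rose by 1.61 on the log2 scale (adjusted p = 1.07e-06), as did Adamts14 by 1.05, and Pcolce, an enhancer of the cleavage at the other end, by 1.12. Bmp1, the main protease of that other end, fell by 0.76 (adjusted p = 8.26e-06), from a mean of 175 to 103 CPM. With library totals in place of TMM its log2 fold change was -0.48 (adjusted p = 0.000153). That missed only the fold threshold of 0.5, and none of these proteases was called lower in that fit. The remaining 3 of the 7 tested did not pass. Of the cross-linking enzymes, 4 of 5 rose: Lox by 2.91 (adjusted p = 1.37e-05), Loxl1 by 2.32, Loxl2 by 2.03 and Loxl3 by 0.90, while Loxl4 was at 0.31 (adjusted p = 0.324). Of the 8 genes of the fibril surface, 6 rose, led by the small proteoglycans Lum by 2.11 and Fmod by 2.07, followed by Col12a1, a collagen of fibril surfaces, by 1.27 and the proteoglycan Bgn by 1.21. Dcn, a further proteoglycan, rose by 0.65 (adjusted p = 0.000389). Fn1, fibronectin, was at -0.52 (adjusted p = 0.0122) and did not pass. Of the 6 genes of degradation and uptake, 5 rose: the collagenases Mmp13 by 3.04 and Mmp8 by 3.02, the gelatinase Mmp2 by 2.42, the collagen receptor Mrc2 by 2.22 and the protease Ctsk by 1.99. Mmp14 was at 0.37 (adjusted p = 0.0145). With library totals, Tnxb and Mmp14 were called higher as well. The background of 13.2% called higher applies to all these lists, and the median log2 fold change was 0.41 for propeptide removal, 2.03 for cross-linking, 0.96 for the fibril surface and 2.32 for degradation and uptake.

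**Figure D5:**
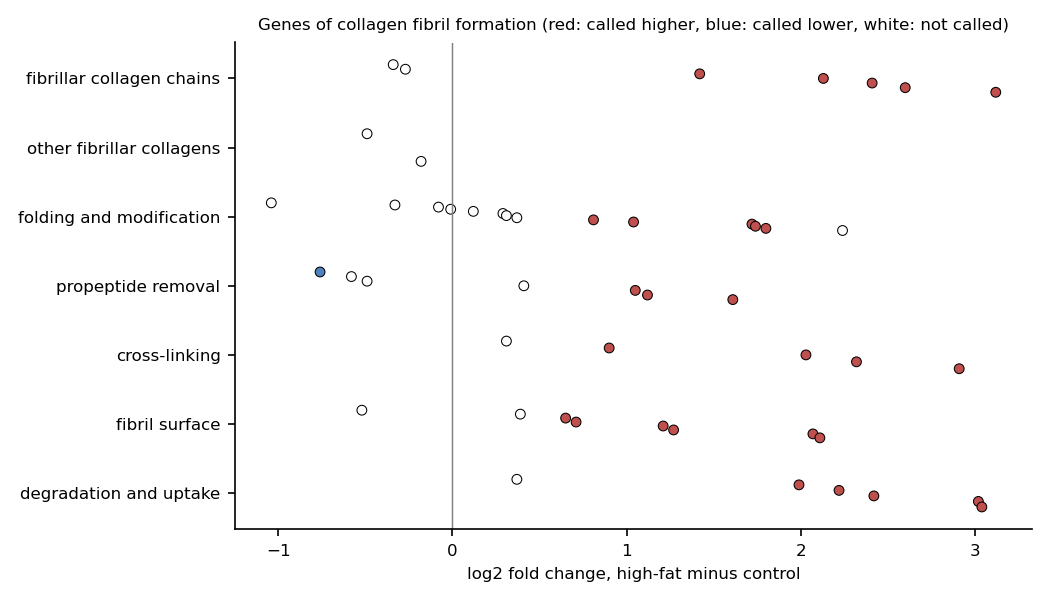
Log2 fold change, high-fat minus control, of each tested gene of the fibrillar collagens and of the lists by role; red points were called higher, blue lower and white not called. Red points run from 0.65 to 3.12, and Bmp1 at -0.76 is the only blue point.

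Markers of several cell types moved with the collagens. Among all genes tested 13.2% were called higher and 4.99% lower, the background for the counts of markers here. That background also moves with the scaling, from 2372 higher and 894 lower to 3827 and 226 with library totals. Of 8 markers of activated stellate cells or myofibroblasts, 7 were tested and 5 rose, led by Timp1 at 3.62 and including Lox and Loxl2 from the cross-linking list, whereas Acta2, smooth muscle actin, was at 0.53 (adjusted p = 0.03) and Tagln at 0.47 (adjusted p = 0.0532). With library totals in place of TMM all 7 were called higher, Acta2 at 0.84 and Tagln at 0.79. Their summed level was 39.9 to 85.0 CPM in high-fat livers and 16.8 to 44.7 in control livers, with control replicate 11 the highest control. Of 8 genes listed as markers of quiescent stellate cells, 3 rose (Pdgfrb by 1.42, Ngfr by 0.85 and Des by 0.57), or 5 with library totals. Lrat at 0.34, Reln at 0.13 and Ecm1 at -0.28 were called with neither scaling. The sum of the 8 genes overlapped between the diets, 217 to 373 CPM against 180 to 433. Portal fibroblast markers rose in 3 of 5 cases, with sums of 14.4 to 63.4 and 7.98 to 19.7 CPM. All 6 markers of monocyte-derived macrophages rose, with sums of 102 to 240 and 17.6 to 53.7 CPM, and 3 of 4 cholangiocyte markers did. Of 6 hepatocyte markers, 4 fell, or 1 with library totals in place of TMM, with sums of 36000 to 90800 CPM in high-fat livers and 81400 to 129000 in control livers. Smooth muscle markers summed to 1.57 to 3.96 and 1.31 to 6.39 CPM, and T cell markers to 1.81 to 5.2 and 0.943 to 7.75 CPM, with none of either list called. Of 5 resident macrophage markers 1 rose, Cd5l by 1.69, and the other 4 were not called. Their sums overlapped, 170 to 779 CPM in high-fat livers and 109 to 468 in control livers. Of 4 markers of sinusoidal endothelial cells 1 rose, Stab2 by 0.57, and the other 3 were not called. Their median log2 fold change was 0.01, and their sums overlapped as well, 93.4 to 266 and 102 to 219 CPM. The sets differed as well: the hepatocyte sum was 67500 to 90800 CPM in the Xist-high high-fat libraries and 36000 to 47100 in the Xist-low ones, and that of monocyte-derived macrophages was 102 to 129 and 168 to 240. The part of these shifts in the collagen levels was not tested.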

How the data were processed

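Poly(A)-selected RNA of whole mouse liver was sequenced in 24 libraries, 12 per diet. The deposited values are raw counts of reads for each Ensembl gene, made by the authors with no scaling. The submitters' processing notes name bcl2fastq, STAR 2.7.3a and mm10; the study's methods name the exon quantification pipeline with STAR, and PISCES, for reads aligned to the human reference, and do not state the mouse annotation or which program counted these reads. Symbols came from GENCODE M21, which held 51745 of the 56205 IDs, and the other 4460 IDs held 0.0723% of the counts. Coordinates, GC content and lengths (the longest coding transcript of each gene, or all its exons) also came from M21.

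From the counts, edgeR 4.0.16 in R 4.3.3 (TMM, quasi-likelihood, Benjamini-Hochberg adjustment) was fitted with diet as the only term. It covered the 17913 genes that had a minimum of 1 count in 12 or more libraries. The code was checked on simulated data. Those for the diet fit held no difference between the Xist sets, so the check does not cover the spread that the sets add. The thresholds (adjusted p at most 0.01, absolute log2 fold change over 0.5) follow the study's methods. Within-set fits used 6 libraries per diet, and the interaction was called at 0.05. Ratios used log2 of counts plus a pseudocount of 0.5, with permutation tests in Python 3.11.15 (100000 resamples, or exact for 6 against 6, where the smallest p is 0.00216). Counting intervals cover counting error only, and depth was 14468418 to 22112552 counts.

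The members, lists, ratios and alternatives were chosen with earlier results of these data known, and the named genes are the members, the role and marker lists and the 5 genes most like each type I and III chain. Alternatives were DESeq2 1.42.0, limma-voom (limma 3.58.1), other scaling, filters and thresholds, GC and length trends, the replicate number as a block, the Xist set, a pseudocount of 5, medians, and each library left out in turn. The libraries are separate samples by their labels, but no label ties a library to a mouse, so p-values measure the spread between libraries. No 2 libraries of a diet agreed within sampling noise (lowest chi-square per degree of freedom 9.48). Libraries of like number were not treated as pairs, because no label says that a number is shared and correlations of their deviations ran from -0.096 to 0.578.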

Additional observations from a re-analysis of the deposited data

Results flagged for a closer look

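The diet change differed between the Xist-low and the Xist-high libraries for 3 chains by the interaction test. The difference was 1.34 on the log2 scale for Col5a2, -2.25 for Col5a3 and -1.24 for Col27a1. For 2 ratios the permutation test of the same difference passed: -3.07 for Col5a3 over Col5a1 and -3.68 for Col5a3 over Col5a2.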

How the results depend on the processing

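The 5 chains called higher stayed at 5 in all 37 fits to 24 or 23 libraries, with Col1a1 between 2.83 and 3.59 and Col5a1 between 1.14 and 1.71. Within the Xist-low libraries 2 chains were called lower, Col5a3 and Col27a1, where 7.89% of the genes tested were. With library totals in place of TMM neither fall passed, at -0.3 for Col5a3 and -0.28 for Col27a1. Leaving out 1 Xist-low library kept the call of Col27a1 in 2 of 12 fits. Within the Xist-high libraries 6 chains were called higher, where 2.91% of the genes tested were. The sign of Col5a3 changed to 0.47 with limma-voom, 0.09 with library totals, 0.34 with the Xist set as a covariate and 1.51 within the Xist-high libraries, and that of Col27a1 to 0.53 there. With the replicate number as a block the log2 fold change of Col5a3 was 0.36, and the block changed no call; 2 of 12 high-fat libraries correlated best with their own number. Library totals in place of TMM moved the median log2 fold change of all genes from -0.03 to 0.26 and the calls from 2372 higher and 894 lower to 3827 higher and 226 lower. Within the Xist-high libraries the ratio differences were -0.06 for type I over Col3a1, -0.34 for Col5a1 over Col5a2, 0.48 for Col5a3 over Col5a1 and 0.14 for Col5a3 over Col5a2. Within the Xist-low libraries they were 0.35 for type I over Col3a1, -0.08 for Col1a2 over Col3a1 and -2.59 for Col5a3 over Col5a1. Medians gave -0.19 for Col1a2 over Col3a1 and -0.82 for Col5a3 over Col5a1. Leaving out 1 library gave -1.25 to -0.86 for Col5a3 over Col5a1, which passed without control replicate 1, 3, 4, 5 or 6. The count of chains whose change differed between the sets was 3 to 7 when 1 library was left out, with 7 without control replicate 11, and 3 to 4 (with Col5a1 at 0.99 under library totals) under other scaling, a filter of 10 counts or a GC correction; all but the filter were chosen after seeing the data. Fits within a set under other scaling or without 1 library, added after seeing the data, kept Col1a1, Col1a2, Col3a1, Col5a1 and Col5a2 called higher; Col27a1 among the Xist-high libraries passed at 0.67 without high-fat replicate 3. The cause of these shifts was not tested. With the length of all exons, also added after seeing the data, the high-fat shares were 33.1% for Col3a1 and 19.1% for type V. The ratio of Col11a1 to Col5a1 had been listed and could not be computed, because Col11a1 had 0 counts. Among the chains only Col11a1 had too few counts for a test, and the lowest count of a tested chain was 19. Why Col11a1 had no count was not tested.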
